A study of Mus musculus with 6 samples.

Results

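Genes of the splicing machinery were followed in mouse hematopoietic stem cells (HSCs) after ionizing radiation. A gene was a member if its symbol began with Srsf, Hnrnp, Sf3a, Sf3b, Snrp or Prpf and ended in digits or lower-case letters, or if it was 1 of Clk1, Clk2, Clk3, Clk4, Rsrp1, Srrm1, Srrm2, Luc7l, Luc7l2 and Luc7l3. This gave 75 of the 21851 genes in the expression tables: 11 SR proteins, 20 hnRNPs, 9 subunits of SF3A and SF3B, 12 Sm, U1 and U2 snRNP proteins, 13 PRPF proteins, 4 CLK kinases and 6 SR-related and LUC7-like proteins. The rule reads symbols and no expression value, although the set was proposed with earlier results of these data known.

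RNA-seq libraries had been made from HSCs of the bone marrow of wild-type (WT) mice, 3 from control mice and 3 from mice given ionizing radiation (IR). The cells were sorted as lineage-negative, Sca-1+, c-Kit+, CD150+, Flt3- and CD48-. Both groups carried the same genotype and no transgene is named. Neither the dose and the time from irradiation to sorting nor the age and number of the mice are given in the labels. Whether libraries of a group stem from different mice is not stated either, so the p-values measure the spread between libraries, which may be technical. The series title speaks of premature aging, and the comparison of irradiated with control cells asks how the level of each mRNA differed between them.

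Splicing removes introns from a pre-mRNA in the spliceosome, which is built from small nuclear ribonucleoproteins (snRNPs) and many further proteins. SR proteins bind exons and mostly favour the use of nearby splice sites, while heterogeneous nuclear ribonucleoproteins (hnRNPs) often oppose them. CLK kinases phosphorylate the arginine- and serine-rich (RS) tails of SR proteins and release them from storage in nuclear speckles. Many of these genes limit their own output by splicing a poison exon or keeping an intron in their own transcript, which then decays or stays in the nucleus.

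Levels were in FPKM, a fragment count scaled to transcript length and to the mapped fragments of the library, which allows levels of different genes to be compared. Fold changes are differences of log2(FPKM + 1), irradiated minus control, and a gene was called higher or lower at a Benjamini-Hochberg adjusted p under 0.05 in limma over the 10281 genes that reached 1 FPKM in at least 3 libraries. Depth was estimated at 14400000 to 16300000 fragments per library. Over all tested genes 54.7% were called, so that a call by itself was common: 25.8% were called higher and 28.9% lower. The sort markers Kit, Ly6a, Slamf1, Cd48 and Flt3 were all detected, and 4 of the 5 differed between the groups. Flt3, sorted as negative, was at 125 FPKM in controls and 65.7 after irradiation (log2 -0.92), and Cd48, also sorted as negative, at 400.1 and 352 (-0.19). The Sca-1 gene Ly6a fell (203 and 157 FPKM, -0.37), the CD150 gene Slamf1 rose (3.57 and 5.06 FPKM, 0.41), and Kit was not called at 97.5 and 96.7. Marker lists of other cells moved with the groups. All 6 tested genes of lymphoid-primed progenitors were called lower (summed FPKM 760.1 to 769.8 in controls and 393 to 402 after irradiation), as were 5 of 6 of monocytes (620.4 to 629 and 527 to 533), all 3 of T and NK cells (37.1 to 38.3 and 19.5 to 20.3, Cd3g at 0 in all libraries) and all 5 of endothelial and stromal cells (58.3 to 61.1 and 42.9 to 46.0). Of 5 megakaryocyte markers 4 were called higher (93.1 to 96.0 and 145 to 157, Gp6 at 0), of 9 neutrophil markers 4 were called higher and 5 lower (3056 to 3101 and 3428 to 3592), and of 10 tested HSC identity genes 5 were called higher and 4 lower (213 to 219 and 213 to 215). Erythroid markers were called in both directions, 6 of 10 higher and 4 lower (572 to 575 and 596 to 599). The higher ones were Klf1 (4.73 and 10.4 FPKM), Epor (1.70 and 4.30), Car1 (19.9 and 48.0), Gata1, Tfrc and Hbb-bt. The lower ones were Hba-a1 (17.8 and 12.4 FPKM), Hba-a2 (3.19 and 1.82), Hbb-bs (13.25 and 5.94) and Car2 (455 and 435). Markers of mast cells, basophils and eosinophils were also called in both directions, 3 of 7 higher and 3 lower (357 to 360.2 and 365 to 370.4). Among them Fcer1a was at 32.6 and 79.6 FPKM and Prg2 at 87.4 and 39.96. Of 3 tested B cell markers 1 was called higher and 2 lower (74.4 to 81.6 and 57.8 to 58.6). The part of these cells in the results below was not tested. In such bulk samples, fewer cells of a type and less RNA per cell cannot be told apart.

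Most splicing genes that passed the test were modestly higher after irradiation, and a smaller number were lower. The lower ones ranged in control level from Luc7l3 at 15.8 FPKM to Hnrnpk at 703. Of the 75 members 73 were tested: 32 rose (43.8%, against 25.8% of all tested genes), 13 fell (17.8%, against 28.9%) and 28 were not called. The median log2 fold change of the tested members was 0.07, against -0.01 over all tested genes, and the median size of change was 0.11 against 0.14. Single members ranged from -1.05 (Rsrp1) to 0.35 (Srsf9). The counts of single families below are to be set beside the same shares of all tested genes. At 1.2-fold or more, 7 members rose (Srsf9, Srsf10, Hnrnpu, Sf3a1, Sf3a2, Snrpa1 and Clk2) where 9.21% of all tested genes did, and 3 fell (Rsrp1, Hnrnpdl and Srsf5) where 13.0% did. In 47 members the libraries of the 2 groups did not overlap, 33 with irradiated cells above and 14 with them below, and the same held for 61.7% of all tested genes. Replicates of the members lay close together, with a median coefficient of variation of 2.09% in controls and 2.25% in irradiated libraries, against 3.68% and 3.87% over all tested genes. Members and all tested genes were not matched for level here, and counting error bears most on low genes. The 2 members outside the test were Srsf12, at 0.193, 0.331 and 0.264 FPKM in controls and 0.141, 0.236 and 0.155 after irradiation, and Snrpn, listed at 0 in all 6 libraries.

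**Figure D1:**
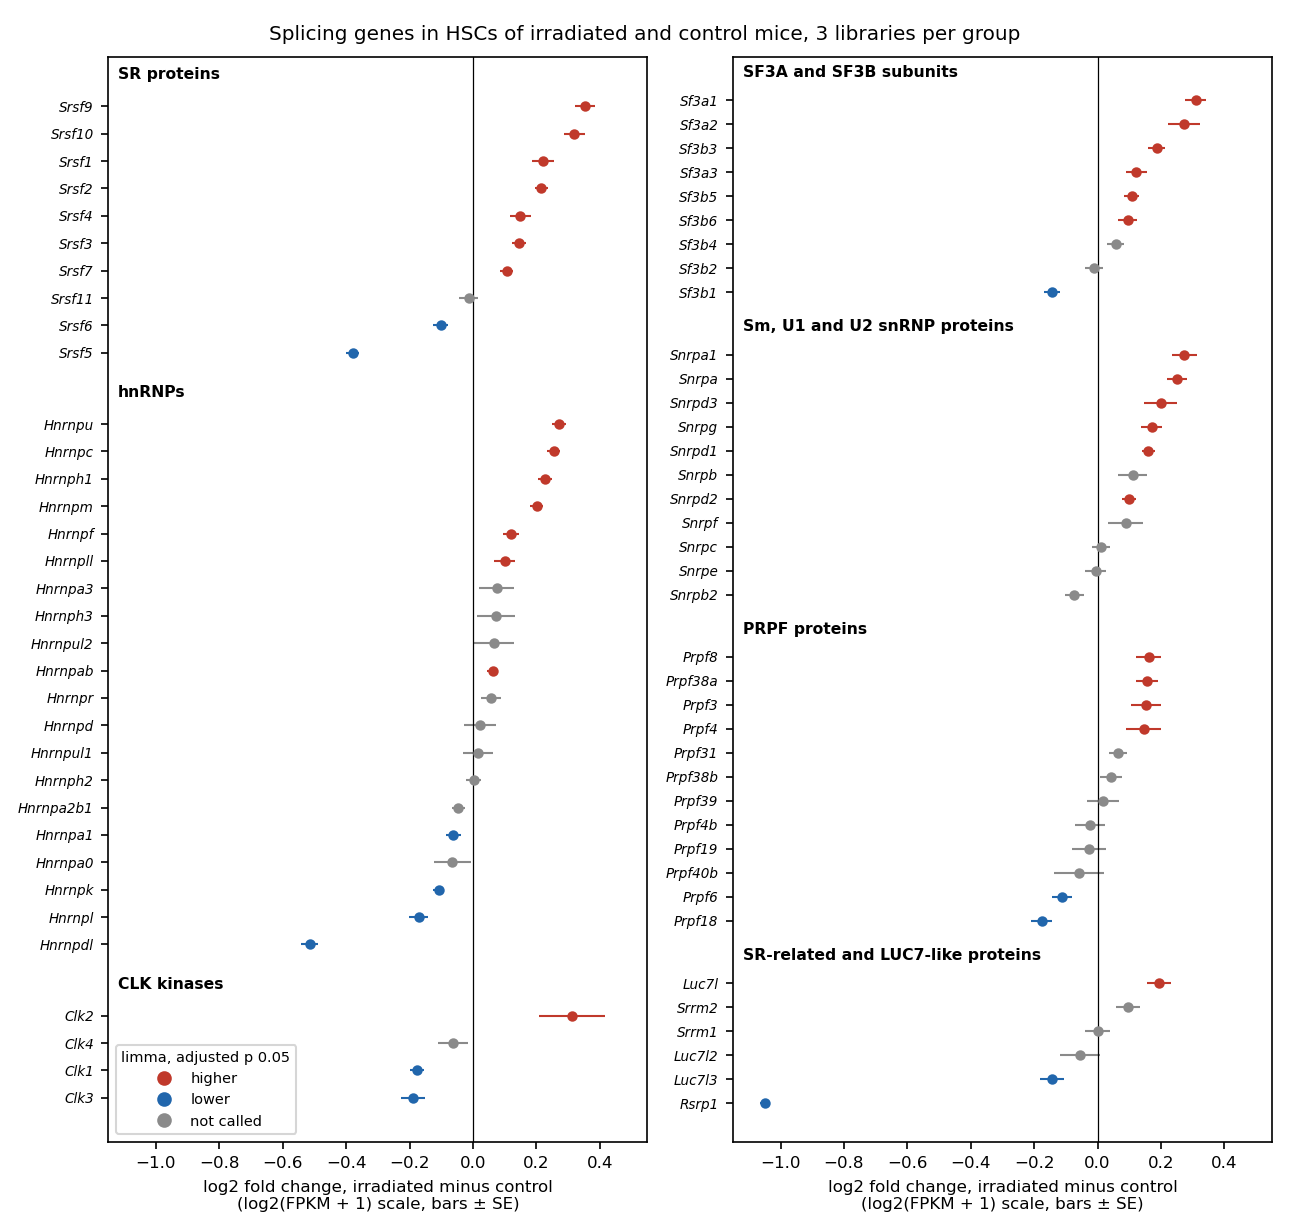
Log2 fold change on the log2(FPKM + 1) scale, irradiated minus control, of the tested members by family (1 PRPF member is not drawn), with bars of 1 standard error and 3 libraries per group. Rsrp1 lies far left of all others at -1.05, followed by Hnrnpdl (-0.51) and Srsf5 (-0.38), while most coloured points lie right of 0 and none lies beyond 0.35.

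The lowest fold change among members belonged to Rsrp1, a gene of 4080 bases at chr4:134923592-134927671 (plus strand, GRCm38) named for its arginine- and serine-rich product. It was among the abundant transcripts of control HSCs, 93rd of 10281 by control level, with 632, 634 and 636 FPKM in the control libraries and 305, 308 and 305 in the irradiated ones. The 2 groups lay far apart, and no library came near the other group. The mean fell by 51.8%, from 634 ± 2.07 to 306 ± 1.74 FPKM (SD, n = 3 each), a log2 fold change of -1.05 (SE 0.017, adjusted p = 1.55e-10). By log2 fold change it ranked 40th from the lowest of the 10281 tested genes. GENCODE annotates 8 transcripts of Rsrp1, none with the nonsense-mediated decay type and 1 with a retained intron, and the FPKM do not tell them apart.

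RS repeats are what joins Rsrp1 to the SR proteins, and the 90 coding bases richest in them are shown for Rsrp1 and Srsf5, which fell, and for Srsf10 and Srsf9, which rose, so that the shared feature can be seen in genes that moved in opposite directions. Arginine codons that stand next to a serine codon are in capitals. The stretches come from GENCODE M21 transcripts, 5′ to 3′ on the coding strand, at chr4:134924023-134924112 (codons 33 to 62 of Rsrp1), chr12:80949757-80949846 (codons 198 to 227 of Srsf5), chr4:135863907-135863996 (codons 224 to 253 of Srsf10) and chr5:115332278-115332653 (codons 172 to 201 of Srsf9, whose genomic span includes an intron), all on the plus strand of GRCm38.
Rsrp1: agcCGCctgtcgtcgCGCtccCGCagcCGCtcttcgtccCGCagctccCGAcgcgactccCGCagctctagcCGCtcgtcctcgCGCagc
Srsf5: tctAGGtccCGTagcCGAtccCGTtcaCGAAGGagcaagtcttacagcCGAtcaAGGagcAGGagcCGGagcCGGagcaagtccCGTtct
Srsf10: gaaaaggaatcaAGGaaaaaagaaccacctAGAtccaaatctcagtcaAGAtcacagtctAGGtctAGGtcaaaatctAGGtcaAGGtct
Srsf9: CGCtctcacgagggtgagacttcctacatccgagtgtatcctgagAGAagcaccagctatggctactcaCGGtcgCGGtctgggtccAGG
The stretches hold 16, 22, 12 and 7 neighbouring arginine and serine codons, in that order. Over their whole coding sequences the counts were 54 in the 298 codons of Rsrp1, 49 in the 270 of Srsf5, 42 in the 262 of Srsf10 and 9 in the 222 of Srsf9. At least 10 such pairs were found in 26 of the 73 tested members (35.6%) and in 13% of all tested genes with a coding sequence. Among members the pairs were on both sides of 0: 11 of 32 that rose, 7 of 13 that fell and 8 of 28 not called held 10 or more. Spearman's rho of the pairs per codon of coding length with the log2 fold change was -0.19 across the 73 members, which share libraries and are not independent.

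Among the other SR-related and LUC7-like genes the changes were small. Luc7l and Luc7l3 encode relatives of a yeast U1 snRNP protein. Luc7l rose from 15.5 ± 0.239 to 17.8 ± 0.596 FPKM (log2 0.19, adjusted p = 0.0018) and Luc7l3 fell from 15.8 ± 0.329 to 14.2 ± 0.415 (-0.14, adjusted p = 0.00997). Luc7l2 was near the filter, at 1.01, 1.14 and 1.07 FPKM in controls and 1.04, 0.977 and 0.967 after irradiation (adjusted p = 0.486). Srrm1 and Srrm2, RS-rich proteins of nuclear speckles, were not called. Srrm1 stood at 18.1 FPKM in both groups (adjusted p = 0.995), and Srrm2 at 16.2 ± 0.109 and 17.4 ± 0.647 (adjusted p = 0.0574, and 0.0431 without irradiated replicate 3), with every irradiated library above every control. In all, 1 of the 6 rose, 2 fell and 3 had no call (median log2 change -0.03). Rsrp1 made up 90.4% to 90.5% of the summed FPKM of the 6 genes in controls and 81.6% to 81.7% after irradiation.

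Of the SR proteins, 7 of 10 tested rose, 2 fell and 1 had no call (median log2 change 0.15). Srsf9 (chr5:115327177-115333080, plus strand), 1 of the shorter SR proteins, was at 41.3, 42.0 and 43.7 FPKM in controls and 55.2, 53.1 and 54.9 after irradiation. The groups did not overlap, and the mean rose by 28.5%, a log2 fold change of 0.35 (SE 0.031, adjusted p = 1.03e-05). Srsf10 (chr4:135855747-135869908, plus strand), known as a splicing repressor when dephosphorylated, was at 40.5, 42.7 and 42.4 FPKM in controls and at 53.9, 51.5 and 52.1 in irradiated cells. It too had every irradiated library above the controls (log2 0.32, SE 0.032, adjusted p = 2.46e-05). Srsf1, the founding SR protein, rose from 39.8 ± 1.01 to 46.5 ± 1.49 FPKM (log2 0.22, adjusted p = 0.000361). Srsf2, which is recurrently mutated in myeloid neoplasms, rose from 184 ± 0.987 to 213 ± 1.98 (log2 0.22, adjusted p = 1.3e-05). Exons of Srsf2 overlap those of Mettl23 (41.3 FPKM in controls and 44.9 after irradiation) and Mfsd11 (4.59 and 4.31) on the other strand. Srsf4, Srsf3 and Srsf7 also rose, by 0.15, 0.15 and 0.11 on the log2 scale.

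Srsf5 went the other way. This SR protein shuttles between nucleus and cytoplasm, and its gene (chr12:80945504-80950507, plus strand) was among the most abundant of the family. Its level was 272, 282 and 274 FPKM in controls and 214, 211 and 210.4 after irradiation, with a wide gap between the groups. The mean fell by 23.2%, from 276 ± 5.04 to 212 ± 2.09 FPKM (log2 -0.38, SE 0.021, adjusted p = 5.14e-07). Srsf6 fell less, from 144 ± 2.2 to 134 ± 1.67 FPKM (-0.10, adjusted p = 0.00358). Srsf11, which interacts with U2AF, was at 34.9 ± 0.738 and 34.5 ± 0.573 FPKM and was not called (adjusted p = 0.722). The makeup of the family shifted while its sum moved little: Srsf5 went from 19.7% to 20% of the summed SR protein FPKM in controls to 14.7% to 14.8% after irradiation, while the sum was 1392 ± 12.8 and 1434 ± 14.9 FPKM, 3.02% higher.

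Of the 4 CLK kinases, which act on the RS tails of these proteins, Clk1 and Clk3 fell, Clk2 rose and Clk4 was not called. Clk1 (chr1:58410189-58424066, minus strand) supplied 71.8% to 72.6% of the summed CLK FPKM in controls. It was at 136, 138 and 135 FPKM in controls and at 121, 119.6 and 121 after irradiation, with no overlap, and fell by 11.6% (log2 -0.18, SE 0.022, adjusted p = 0.000101). Clk3 was at 28.2, 27.2 and 27.6 FPKM in controls and 25.3, 23.6 and 23.5 after irradiation, again without overlap (log2 -0.19, SE 0.038, adjusted p = 0.00187). An exon of Clk3 overlaps an exon of Edc3 on the other strand, which stood at 30.9 FPKM in controls and 29.0 after irradiation. Whether fragments were assigned by strand is not stated. Further members have such overlaps, and not all of them are described here. Clk4 was at 23.3, 23.95 and 22.1 FPKM in controls and 23.5, 21.1 and 21.6 in irradiated libraries. Its groups overlapped (log2 -0.06, SE 0.047, adjusted p = 0.274).

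Clk2 was the scarcest of the 4, at 1.66, 1.19 and 1.26 FPKM in controls and 1.53, 2.25 and 2.07 after irradiation. The first control library lay above the first irradiated one, so the groups overlapped, and the call (log2 0.31, SE 0.105, adjusted p = 0.0278) was lost with no filter on low values (adjusted p = 0.0637) and without any 1 of control replicates 2 and 3 and irradiated replicates 2 and 3 (adjusted p 0.0767 to 0.101). Its log2 fold change was 0.13 with a pseudocount of 5 and 0.48 with one of 0.1. The summed CLK FPKM was 188.5 ± 2.39 in controls and 169 ± 2.22 after irradiation, a difference of -10.5%, and Clk1 made up 70.5% to 72% of it. The median log2 fold change of the 4 genes was -0.12. In the list of other SR protein kinases and their import factors, 4 of 16 tested genes rose (25%, against 25.8% of all tested genes). None fell by limma's adjusted p, nor was 1 lower at an unadjusted p under 0.05. Chosen after its values were seen, Srpk1, the cytoplasmic kinase that primes SR proteins for import, rose from 24.1 ± 0.221 to 28.7 ± 0.411 FPKM (log2 0.24, adjusted p = 0.000114), with its controls at 24.1, 23.9 and 24.3 and its irradiated libraries at 29.2, 28.5 and 28.5. Srpk2 (5.65 and 5.79 FPKM, adjusted p = 0.622) and Tnpo3, the import receptor of SR proteins (36.6 and 35.5, adjusted p = 0.294), were not called.

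**Figure D2:**
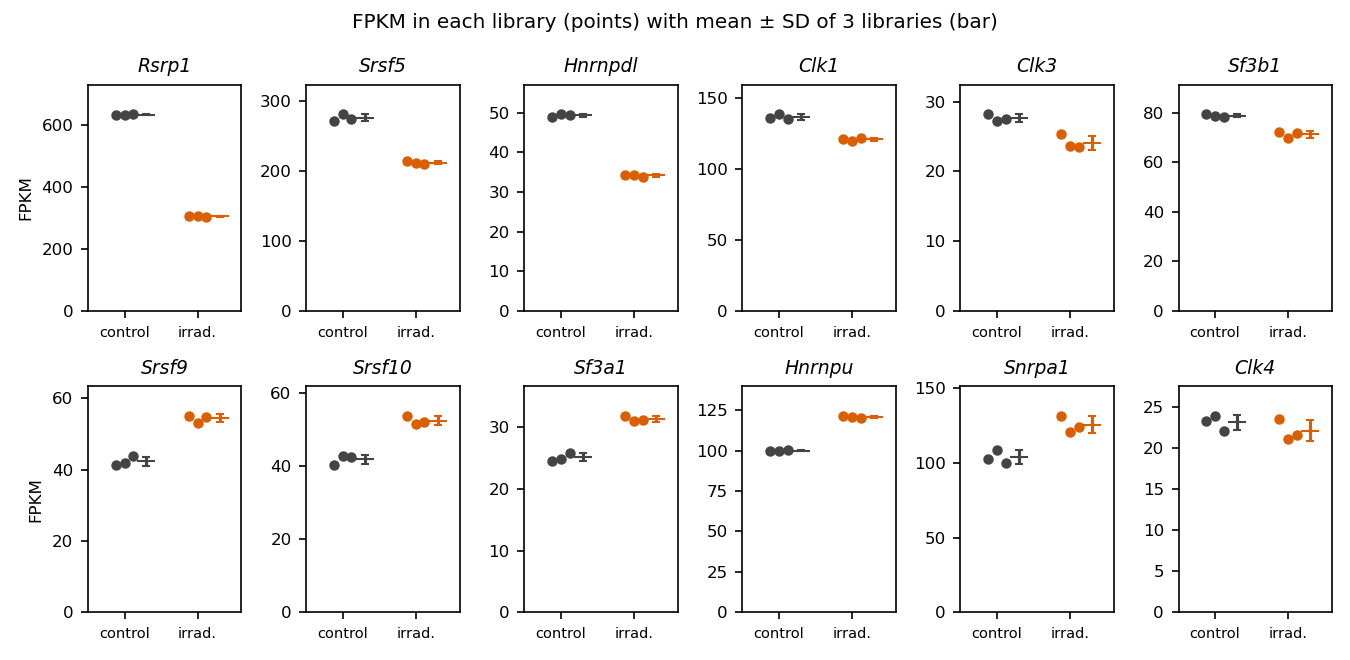
FPKM of 12 members in each library (points), with the mean and SD of the 3 libraries of a group (bar), all axes starting at 0. The upper row holds 6 members that fell, and the lower row 5 that rose and Clk4, whose groups overlap. In the other 11 panels the irradiated points lie all on one side of the controls, and the gap is widest for Rsrp1 (634 against 306 FPKM).

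The hnRNPs were called in both directions: 7 of 20 rose, 4 fell and 9 had no call (median log2 change 0.06). Hnrnpdl (chr5:100033577-100039664, minus strand), a paralog of Hnrnpd that binds AU-rich RNA, had the lowest fold change in the family. It was at 49.0, 49.7 and 49.3 FPKM in controls and at 34.4, 34.4 and 33.9 after irradiation. The spread within each group was under 1 FPKM and the groups lay far apart: the mean fell by 30.6% (log2 -0.51, SE 0.027, adjusted p = 3.73e-07). Its paralog Hnrnpd was low and was not called, at 6.31 ± 0.219 and 6.43 ± 0.31 FPKM (adjusted p = 0.724). Hnrnpl, which binds CA-rich elements, fell from 33.9 ± 0.346 to 30.02 ± 0.606 FPKM (-0.17, adjusted p = 0.000958). Its paralog Hnrnpll, known for the splicing of Ptprc in lymphocytes, rose from 46.3 ± 2.02 to 49.7 ± 0.463 (0.10, adjusted p = 0.0307). This call of Hnrnpll was lost without control replicate 1 or 2 or irradiated replicate 1 or 3 (adjusted p 0.0598 to 0.112). Hnrnpk, a poly(C)-binding protein and the hnRNP with the highest level, fell from 703 ± 4.78 to 652 ± 9.35 FPKM (-0.11, adjusted p = 0.000504). Hnrnpa1, a frequent antagonist of SR proteins, fell from 242 ± 4.56 to 232 ± 4.22 (-0.06, adjusted p = 0.0413), a call lost under 8 of 13 alternatives, among them leaving out control replicate 2 or 3 or irradiated replicate 2 or 3 (adjusted p 0.077 to 0.142).

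Of the hnRNPs that rose, Hnrnpu, a chromatin-associated RNA-binding protein, had the highest fold change. It was at 99.5, 99.7 and 100.3 FPKM in controls and 122, 121 and 119.9 after irradiation. No library overlapped with the other group (log2 0.27, SE 0.022, adjusted p = 5.49e-06). Hnrnpc, which binds uridine tracts and competes with U2AF, rose from 145 ± 1.61 to 174 ± 1.33 FPKM (0.25, adjusted p = 6.68e-06). Hnrnph1, which binds G-rich runs, rose from 109 ± 1.44 to 128 ± 1.53 (0.23, adjusted p = 2.49e-05), and Hnrnpm from 217 ± 2.59 to 249.6 ± 2.9 (0.20, adjusted p = 2.54e-05). Hnrnpf and Hnrnpab rose by 0.12 and 0.06 on the log2 scale. The most abundant hnRNPs without a call were Hnrnpa2b1, at 340 ± 4.96 and 329 ± 4.7 FPKM (adjusted p = 0.0768), and Hnrnph2, at 127 ± 1.87 and 127 ± 1.94 (adjusted p = 0.949). Hnrnph1 and Hnrnph2 are close paralogs that can share reads, as can Hnrnpa1 with its processed copies. The summed hnRNP FPKM was 2812 ± 17.8 in controls and 2866 ± 18.8 after irradiation, 1.89% more.

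SF3A and SF3B form the part of the U2 snRNP that holds the branch point, and 6 of their 9 subunits rose, 1 fell and 2 had no call (median log2 change 0.11). Sf3a1 (chr11:4160350-4182541, plus strand), the subunit that links SF3A to the U2 snRNP, was at 24.6, 24.9 and 25.9 FPKM in controls and 31.9, 31.1 and 31.2 after irradiation. The groups did not overlap (log2 0.31, SE 0.033, adjusted p = 3.61e-05). Its partners Sf3a2 (6.02 ± 0.193 to 7.48 ± 0.356 FPKM, log2 0.27, adjusted p = 0.00119) and Sf3a3 (118 ± 1.9 to 128 ± 5.94, log2 0.12, adjusted p = 0.00983) rose as well, so that every SF3A subunit was called higher. Sf3a2 shares exonic bases with Plekhj1 on the other strand, which stood at 77.0 and 77.6 FPKM. Within SF3B, Sf3b3 rose from 71.6 ± 0.696 to 81.6 ± 2.05 FPKM (0.19, adjusted p = 0.000249), and the small subunits Sf3b5 and Sf3b6 rose by 0.11 and 0.09 on the log2 scale, the call of Sf3b6 being lost without control replicate 1 (adjusted p = 0.0779) or irradiated replicate 1 (0.0692).

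Sf3b1, the large scaffold that contacts the branch point and the most often mutated splicing gene of myelodysplastic syndromes, fell. It was at 79.5, 78.7 and 78.5 FPKM in controls and 72.3, 69.6 and 72.0 after irradiation. All irradiated libraries were below all controls, and the mean fell by 9.61% (log2 -0.14, SE 0.026, adjusted p = 0.000954). Sf3b2 (102 ± 2.61 and 101 ± 2.23 FPKM, adjusted p = 0.756) and Sf3b4 (83.7 ± 0.807 and 87.1 ± 1.98, adjusted p = 0.086) were not called. The summed FPKM of the 9 subunits was 5.85% higher after irradiation, at 911 ± 4.55 against 861 ± 11.3.

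The Sm proteins form the ring around spliceosomal snRNAs, and the same family of symbols holds the specific proteins of the U1 and U2 snRNPs. Here 6 of 11 tested genes rose, none fell by limma's adjusted p (1, Snrpb2, was lower at an unadjusted p under 0.05) and 5 had no call (median log2 change 0.11). Snrpa1, the A' protein of the U2 snRNP, was at 102.5, 109 and 99.8 FPKM in controls and 132, 121 and 124 after irradiation. These libraries spread more than those of most members, yet the groups did not overlap (log2 0.27, SE 0.039, adjusted p = 0.000248). Snrpa, the A protein of the U1 snRNP, was at 115, 110.3 and 107 FPKM in controls and 131, 135 and 129 after irradiation. It rose by 19.1% without overlap (log2 0.25, SE 0.031, adjusted p = 9.07e-05). Snrpb2, the B'' partner of Snrpa1 in the U2 snRNP, did not pass the test: it was at 103 ± 3.89 and 97.8 ± 0.894 FPKM (log2 -0.07, adjusted p = 0.0558, and 0.0481 without control replicate 1), with every irradiated library below every control.

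Of the 7 Sm ring proteins, Snrpd3, Snrpg, Snrpd1 and Snrpd2 rose, by 0.20, 0.17, 0.16 and 0.10 on the log2 scale. Snrpd3 rested on wide groups, 143, 137 and 155 FPKM against 169, 176 and 154, that overlapped (adjusted p = 0.00867), and its exons overlap those of Gucd1 on the other strand, which stood at 13.95 and 10.3 FPKM. Snrpb, Snrpe and Snrpf were not called: Snrpb was at 517 ± 21.8 and 559 ± 39.4 FPKM (adjusted p = 0.0607, but 0.0327 without control replicate 3 and 0.0189 without irradiated replicate 1), Snrpe at 499 ± 11.4 and 497 ± 24.6 (adjusted p = 0.876) and Snrpf at 56.7 ± 2.97 and 60.5 ± 4.8. The U1 protein Snrpc was at 139.8 ± 2.83 and 141 ± 4.68 FPKM (adjusted p = 0.739). Snrpn, an imprinted gene whose protein resembles that of Snrpb, was listed at 0 throughout, and so was Snurf, whose exons it shares. Whether these zeros come from how reads were assigned was not tested. The summed FPKM of the family was 2792 ± 39.7 in controls and 3017 ± 114 after irradiation, 8.07% more.

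Of the PRPF proteins, many of them components of the U5 and U4/U6 snRNPs, 4 of 13 rose, 2 fell and 7 had no call (median log2 change 0.02). Prpf8, the scaffold at the catalytic centre, rose from 14.7 ± 0.471 to 16.6 ± 0.239 FPKM (0.16, adjusted p = 0.00517). Prpf38a, needed for activation of the spliceosome, rose from 48.2 ± 2.11 to 53.7 ± 0.861 (0.16, adjusted p = 0.00373). The U4/U6 proteins Prpf3 (14.8 ± 0.731 and 16.5 ± 0.666 FPKM, adjusted p = 0.0183) and Prpf4 (14.25 ± 0.945 and 15.9 ± 0.862, adjusted p = 0.0426) were also called higher, Prpf4 with overlapping groups. Prpf18, which acts in the second catalytic step, was at 25.8, 24.8 and 24.7 FPKM in controls and 22.3, 22.3 and 21.7 after irradiation. Its groups did not overlap and it fell by 12% (log2 -0.18, SE 0.034, adjusted p = 0.00153). Prpf6, a bridge between U5 and U4/U6, fell from 37.7 ± 0.765 to 34.8 ± 0.736 (-0.11, adjusted p = 0.012). Without a call, the most abundant was Prpf31 (74.0 ± 1.9 and 77.4 ± 1.84 FPKM, adjusted p = 0.0881). Prpf3 and Prpf4 lost their calls without control replicate 2 or irradiated replicate 1 or 3, Prpf3 also without control replicate 1 and Prpf4 without control replicate 3 (adjusted p 0.0522 to 0.156). The family then had 2 or 3 called higher in place of 4.

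Added over all 75 members, the FPKM barely differed, at 9049 ± 57.7 in controls and 9083 ± 124 after irradiation, or 1.85% to 1.86% and 1.84% to 1.88% of the library total. Within this sum Rsrp1 alone fell from 634 to 306 FPKM, which offset most of the higher sums of other families. By family, the irradiated sums lay above the controls in all 3 libraries for the SR proteins, hnRNPs, SF3A and SF3B subunits, snRNP proteins and PRPF proteins (312 ± 2.93 against 303.5 ± 5.66 FPKM in the last), and below them for the CLK kinases and the SR-related and LUC7-like proteins. The last of these stood at 0.534 times the control sum, 374 ± 2.03 against 700.5 ± 2.64 FPKM, most of it Rsrp1. Across the 73 tested members the log2 fold change had a Spearman's rho of 0.04 with the control level.

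**Figure D3:**
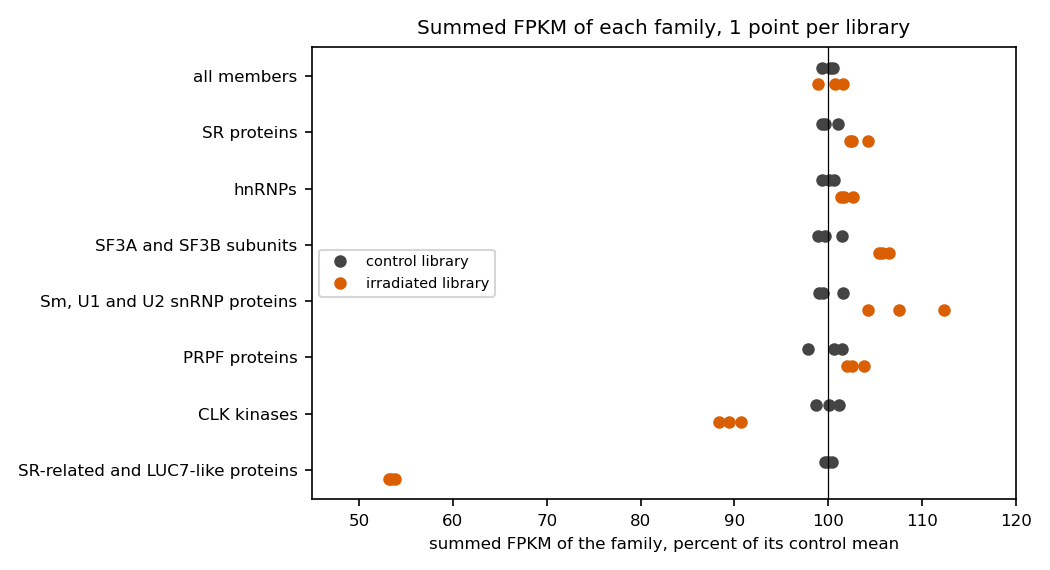
Summed FPKM of each family in each library as a percent of the family's control mean, 1 point per library. The irradiated points lie right of the controls in 5 families, highest for the Sm, U1 and U2 snRNP proteins (8.07% more on average), and left of them for the CLK kinases (-10.5%) and the SR-related and LUC7-like proteins (-46.6%), while the sums of all members overlap.

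The rest of the splicing machinery was counted in 10 further lists that the symbol rule does not cover. Of 185 tested genes 64 rose (34.6%, against 25.8% of all tested genes), 37 fell (20%, against 28.9%) and 84 were not called. In all 54.6% were called, near the 54.7% of all tested genes, and the median log2 fold change was 0.06. The counts of single lists below are to be set beside the same shares of all tested genes. Among the factors that recognise the 3′ splice site, 8 of 15 rose and 3 fell (median 0.16). The genes described here were chosen after their values were seen. Sf1, the branch point binding protein, was at 26.0, 24.7 and 25.1 FPKM in controls and 31.3, 32.5 and 31.9 after irradiation (log2 0.33, adjusted p = 2.82e-05), and U2af1 and U2af2, which bind the end of the intron, rose from 98.3 ± 5.14 to 110.1 ± 1.11 (0.16, adjusted p = 0.0028) and from 8.33 ± 0.51 to 9.39 ± 0.306 FPKM (0.16, adjusted p = 0.0256). The call of U2af2 was lost without control replicate 1 or 2 or irradiated replicate 2 or 3 (adjusted p 0.064 to 0.0945). In the list of U1, U2, U5 and U4/U6 snRNP proteins outside the rule 7 of 20 rose and 3 fell. Snrnp70, the 70K protein of the U1 snRNP and partner of Snrpa, rose from 29.3 to 35.5 FPKM (0.27). Of the Prp19 complex and the catalytic helicases 10 of 31 rose and 7 fell: Dhx16, the helicase that starts the first catalytic step, rose from 14.4 ± 0.0846 to 19.4 ± 0.568 FPKM (0.41, adjusted p = 1.1e-05).

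Of 26 further SR and SR-related genes 10 rose and 4 fell. Tra2b, an SR-like activator with its own poison exon, rose from 201.5 ± 1.79 to 229.8 ± 1.74 FPKM (0.19, adjusted p = 3.01e-05), and Srrt, which joins the cap-binding complex, rose from 24.6 ± 0.841 to 33.4 ± 0.591 (0.43, adjusted p = 6.29e-06). Son, a large speckle scaffold like Srrm2, was at 30.7 ± 0.0847 and 31.0 ± 0.754 FPKM (adjusted p = 0.787). The hnRNP-like genes and other regulators of alternative splicing were called 10 times in each direction among 31 tested. Cirbp, a cold-inducible RNA-binding protein, was at 123.5, 132 and 129.5 FPKM in controls and 60.7, 61.8 and 61.4 after irradiation. Its groups lay far apart, and its log2 fold change of -1.05 (adjusted p = 3.84e-09) was close to that of Rsrp1. Ewsr1, an RNA-binding protein of the transcription and splicing machinery, fell from 227 ± 2.85 to 184.5 ± 1.97 FPKM (-0.30, adjusted p = 2.3e-06), while Pcbp1, a poly(C)-binding relative of Hnrnpk, rose from 228 ± 3.3 to 287 ± 3.76 (0.33, adjusted p = 1.09e-06). Of the remaining lists, the LSm proteins and SMN complex had 6 of 21 higher and 4 lower, the minor spliceosome 3 of 10 higher and 3 lower, the exon junction complex 2 of 5 higher and none lower by limma's adjusted p (0 also at an unadjusted p under 0.05), and the nonsense-mediated decay factors 4 of 12 higher and 3 lower. Of the higher ones, 1 decay factor was called without control replicate 1 and 2 without control replicate 3 or irradiated replicate 2, 1 minor spliceosome gene without control replicate 1 or irradiated replicate 2, and 1 exon junction gene without control replicate 1 or 2 or irradiated replicate 1 or 2.

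**Figure D4:**
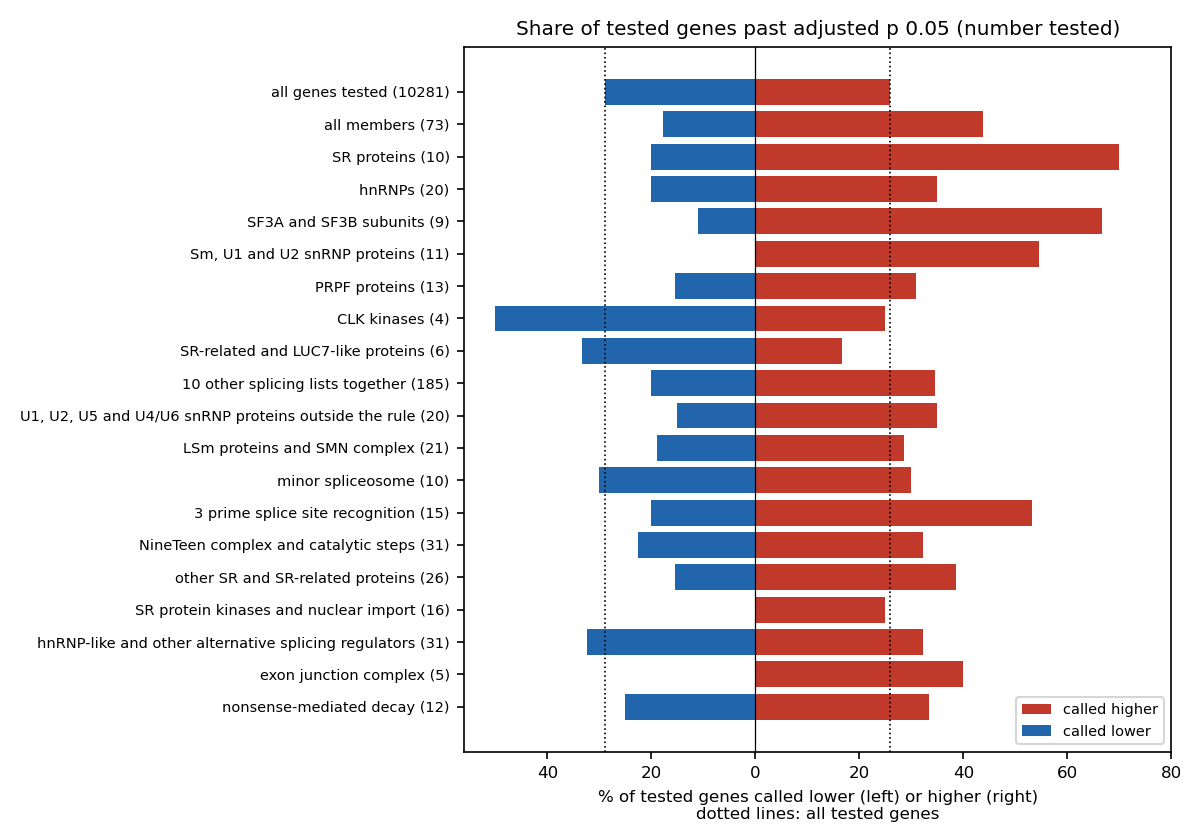
Percent of tested genes called lower (bars to the left) and higher (bars to the right) at an adjusted p under 0.05, for all tested genes, the members, each family and the 10 further lists, with the number tested in parentheses and dotted lines at the shares of all tested genes. The bar of the members reaches 43.8% on the right and 17.8% on the left, and the SR proteins (70%) and the SF3A and SF3B subunits (66.7%) reach farthest right.

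Gene-level FPKM do not show how the members' own transcripts were spliced, and only the annotation could be set beside the calls. GENCODE M21 gives at least 1 transcript of the nonsense-mediated decay type to 40 of the 73 tested members (54.8%) and to 30.6% of all tested protein-coding genes, and a retained-intron transcript to 57 (78.1%) and 61.7%. Such a decay transcript is annotated for 9 of 10 SR proteins, all 4 CLK kinases and 1 of 9 SF3A and SF3B subunits. By call it is annotated for 13 of the 32 members that rose (40.6%), 10 of the 13 that fell (76.9%) and 17 of the 28 not called (60.7%). In the same order the median number of annotated transcripts per gene was 5.5, 8 and 8, against 5 over all tested protein-coding genes. How far that number bears on these shares was not tested. Clk1, with 13 annotated transcripts, has 7 with a retained intron, and Srsf5, with 12, has 3. These are counts of annotated models and not of molecules in these cells.

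Promoters, from 250 bases before to 50 after a RefSeq start (GRCm38.p6), were found for 65 members, 86 promoters in all. Snrpd1, Sf3b5, Snrpb, Hnrnpul2, Sf3b4, Luc7l, Clk1, Prpf18 and Hnrnpll were among those not matched. The 120 bases before the start are shown for Snrpa, which rose, and Srsf5, which fell, to set a promoter with E-boxes beside one without. Matches of the CRE, CCAAT, E-box and ETS letters are in capitals. Those of the other motifs searched, such as the GC box letters GGGCGG in Srsf5, were left in lower case. In Snrpa (chr7:27196272-27196391, minus strand, 1 of its annotated promoters) the capitals are the CRE letters TGACGTCA and the E-box letters CACGTG, found at -113, -73 and -32 from the start. In Srsf5 (chr12:80945379-80945498, plus strand) they are the ETS letters CCGGAAG on either strand, at -90 and -23.
Snrpa: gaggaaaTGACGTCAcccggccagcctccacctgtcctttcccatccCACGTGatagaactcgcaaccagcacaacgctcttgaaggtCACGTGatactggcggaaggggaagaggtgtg
Srsf5: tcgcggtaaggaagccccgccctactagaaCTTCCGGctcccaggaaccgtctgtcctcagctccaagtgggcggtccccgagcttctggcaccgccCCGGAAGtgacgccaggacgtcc
Searched on both strands, CACGTG was in 14% of the members' promoters, against 10.2% of those of tested genes and 7.15% of all 32851, and it was in 7 of 39 promoters of members that rose (17.9%), 0 of 11 of those that fell and 5 of 31 of those not called (16.1%). CCGGAAG was in 30.2%, against 19.1% and 8.86%, and its share was 33.3% in members that rose, 27.3% in those that fell and 32.3% in those not called. TGACGTCA was in 3.49%, against 3.18% and 1.79%. Of 5 other motifs searched, the GC box GGGCGG was in 69.2% of promoters of members that rose, 90.9% of those that fell and 54.8% of those not called, and TATAAA in 6 of 39, 0 of 11 and 0 of 31. In the same order CCAAT was in 43.6%, 36.4% and 58.1%, the heat shock element GAANNTTC in 7.69%, 9.09% and 12.9%, and the YY1 letters AAGATGG in 2.56%, 0% and 9.68%. Over promoters of tested genes the shares were 62.9% for the GC box, 6.53% for TATAAA and 38.6% for CCAAT. They were 5.91% for the heat shock element and 7.52% for the YY1 letters. With 11 promoters of members that fell, these shares rest on few sequences. Promoters of a gene can overlap, and a match is a stretch of letters and not a site shown to be bound.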

How the data were processed

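RNA-seq was measured in 6 libraries of sorted HSCs, 3 per group, grouped by the agent named in the labels. Per the submitters' processing notes, fastp, HISAT2 and StringTie were used on GRCm38 (mm10). No version, annotation, setting or use of strand in counting is stated there. The authors deposited 1 value per symbol, taken to be FPKM because StringTie writes it and the values fit, as the column header names no unit. Of 21878 entries, 27 with a date in place of a symbol were left out.

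Values were tested as log2(FPKM + 1) in limma 3.58.1 (R 4.3.3) with a mean-variance trend, on genes with at least 1 FPKM in 3 or more libraries, with p-values adjusted over all of them by Benjamini-Hochberg. A fold change on this scale understates changes of low genes, and 1.2-fold means a log2 difference of 0.263. The fit was tested on simulated data. Low FPKM times transcript length were whole multiples of 1 common step for 23.1% to 27.8% of low values, too few to recover reads but enough for the estimate of depth, so no count test was made. At this depth counting error bears most on members near 1 FPKM (Clk2, Luc7l2). Over replicate pairs, the median squared difference was 1.28 to 1.62 times that of counting noise, with counts approximated from the estimated depth. No library thus repeated the values of another. The spread within a group was not far above counting noise. It does not tell whether the libraries stem from different mice or from the same RNA. Replicate numbers did not pair libraries: deviations of same-numbered libraries correlated at 0.009, -0.031 and -0.049.

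Members and lists were chosen with earlier results of these data known. Of each family, up to 4 risers and 4 fallers by fold change and the 2 most abundant uncalled genes are named, with every CLK, SR-related and LUC7-like gene; 1 PRPF gene stays in the counts and is not reported here by name. Alternatives were another pseudocount, filter, scaling and variance model, a replicate block, and leaving out each library. Gene positions and transcript types come from GENCODE M21, and promoters from RefSeq (GRCm38.p6).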

Additional observations from a re-analysis of the deposited data

How the results depend on the processing

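Across 13 alternative settings no call changed direction. In every setting that tested them, 38 members (26 higher and 12 lower) kept their call, and the median log2 fold change of the members lay between 0.05 and 0.09. With a replicate block, which the data did not call for, 31 members were called higher and 12 lower, Hnrnpa1 lost its call (adjusted p = 0.0802) and so did Clk2 (adjusted p = 0.0554), leaving 0 CLK kinases called higher. That number was also 0 with no filter on low values, and 0 to 1 when single libraries were left out. With a filter of 5 FPKM it was 0 because Clk2, below that level in every library, was not tested. Leaving out single libraries gave 28 to 31 members higher and 12 to 14 lower, 2 to 4 PRPF proteins higher, 0 to 1 snRNP protein lower (Snrpb2, without control replicate 1) and 1 to 2 SR-related or LUC7-like proteins higher, and 2 of the last were higher with median-of-ratios scaling. At 1.2-fold, a pseudocount of 5 left 403 of all genes higher, 663 lower and 4 members higher, and a filter of 5 FPKM left 610 higher and 804 lower; the pseudocount shrinks low genes by construction and the filter tests fewer. Calls that some settings lost were those of Hnrnpa1, Clk2, Prpf3, Prpf4, Hnrnpll, Sf3b6 and Hnrnpab, and Snrpb, Srrm2 and Snrpb2 gained one; the cause was not tested.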

Other observations

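The genes next to Rsrp1 were read as a description of its locus, chosen after the values were seen. Within 50000 bases, Tmem50a fell from 246.5 to 209.8 FPKM (log2 -0.23, adjusted p = 7.05e-05 in limma) and Syf2, itself a splicing factor of the Prp19 complex, from 92.9 to 77.7 (-0.25, adjusted p = 9.08e-05). Rhd, an erythroid membrane protein, rose from 2.02 to 2.59 FPKM (0.25, adjusted p = 0.0103). Rsrp1 itself had a log2 fold change of -1.05.

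Prpf19, the ubiquitin ligase at the core of the Prp19 complex, was listed at 2.82 ± 0.0959 FPKM in controls and 2.75 ± 0.0182 after irradiation (SD, n = 3 each), while its partners Cdc5l, Plrg1 and Bcas2 stood at 38.6, 62.0 and 95.5 FPKM in controls. Low levels were also listed for Hnrnpa3 (4.29 and 4.58 FPKM) and Luc7l2 (1.07 and 0.993). Whether these low values, that of Prpf19 included, come from the annotation or the assignment of reads was not tested and cannot be settled from FPKM.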
